A study of Mus musculus with 2 samples.

Results

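Heat shock proteins and their DnaJ cochaperones were followed in γδ T cells of the mouse spleen, in 1 library of cells expanded with interleukin 2 (IL-2) and 1 library of freshly isolated cells. The genes were taken by symbol from the deposited read count table: the Hspa to Hspe families, the cytosolic HSP90 genes, Hsph1, Hspbp1, and the DnaJ classes A, B and C. The chaperones Hspa5, Dnajb9, Dnajb11 and Dnajc3 of the endoplasmic reticulum were left out by that choice. It gave 68 of 24091 genes. Of these, 53 had a mean of at least 1 CPM (reads of a gene per 1000000 reads, after scaling of the library) over both libraries and are called measured below. No measured value entered the choice, although the family was picked with earlier results of these data known.

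Both libraries were of total RNA from cells labelled γδ T cells of spleen, which are T lymphocytes with a receptor of a γ and a δ chain. The treatment labels read IL-2 expanded and freshly isolated. Per the protocol text, expansion used IL-2 at 100 U/ml for 5 days, with anti-CD3 on the plate and anti-CD28 in solution. The protocol text is the same for both libraries, so that the freshly isolated library is taken as uncultured from its treatment label only. Strain, age and sex of the mice, and whether animals were pooled, are not given in the sources used here. Activation, culture and IL-2 came together in this comparison and cannot be told apart.

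Chaperones bind proteins that are not yet folded or have lost their fold. HSP70 proteins do so in a cycle of ATP hydrolysis, which J-domain proteins of the DnaJ classes start and nucleotide exchange factors such as the HSP110 proteins and Hspbp1 reset. HSP90 acts later on chosen clients, among them kinases and steroid receptors, and the chaperonin of Hspd1 and Hspe1 folds imported proteins inside mitochondria. Most of these genes serve growing cells without any stress, while a few, with Hspa1a and Hspa1b as the textbook case, are held low and switched on by heat shock factor 1 after heat or other damage to proteins.

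The total count was 22204099 in the expanded and 20379385 in the freshly isolated library. Of 8 T cell markers, 5 were under 2-fold apart, and Cd2, Cd5 and Lck were at least 2-fold lower in expanded cells. The T cell receptor complex gene Cd3e stood at 688 CPM (expanded) and 734 CPM (freshly isolated), and Cd3g at 743 and 698 CPM in the same order, whereas Cd5 stood at 4.42 CPM (expanded) and 132 CPM (freshly isolated). The γ and δ receptor chains were not analysed here, so the label was checked as T cells only. Markers of other spleen cells were mostly far lower in the expanded library. The 16 macrophage and monocyte markers summed to 46.0 CPM in the expanded library, where 9 of them including Lyz2, C1qa and Vcam1 had 0 counts, and to 1310 CPM in the freshly isolated library, where none did. The 10 B and plasma cell markers summed to 3.90 CPM (expanded, 5 at 0 counts, among them Ms4a1 and Cd79a) and 928 CPM (freshly isolated). The 8 dendritic cell markers summed to 25.6 CPM (expanded) and 1094 CPM (freshly isolated), most of the latter from Cd74, H2-Aa, H2-Ab1 and Itgax. Flt3 had 0 counts in expanded and 139 counts in freshly isolated cells. Siglech (0 and 3 counts in the same order) and Xcr1 (4 and 3 counts) had few counts in both libraries. The 6 erythroid markers in the table summed to 0.0951 CPM (expanded) and 88.1 CPM (freshly isolated). Batf3, of the dendritic list, was higher at 12.1 CPM (expanded) against 3.21 CPM (freshly isolated). The 6 stromal and endothelial markers summed to 129 CPM in expanded and 180.3 CPM in freshly isolated cells, most of it Pecam1. In RNA of a cell mixture, fewer cells of a type and less RNA per cell cannot be told apart.

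There was 1 library per group. No difference below therefore has a replicate check, no test was made and no p-value is given. Folds of a single gene are plain ratios of CPM with an exact 95% interval that covers counting error only. Genes were counted as at least 2-fold or 4-fold apart by a log2 fold (expanded over freshly isolated) that adds a prior count of 2.

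The family as a whole took a larger share of the reads in expanded cells, with its HSP genes higher in sum and its DnaJ genes nearly level. All members together held 1.03% of the counts in the expanded library (exact binomial 95% interval 1.02 to 1.03) and 0.617% in the freshly isolated library (0.613 to 0.620). The 26 genes with an HSP symbol summed to 8234 CPM in expanded and 3406 CPM in freshly isolated cells, 2.42-fold higher (interval 2.40 to 2.44). Of these sums, Hsp90ab1 alone held 4757 CPM in expanded and 1836 CPM in freshly isolated cells. The 42 DnaJ genes summed to 2621 and 2433 CPM in the same order. The share of DnaJ genes in unscaled counts was 0.248% in expanded and 0.257% in freshly isolated cells, so that the direction of that small difference depends on the scaling. DnaJ reads made up 24.2% of the family's reads in expanded cells (interval 24.0 to 24.3) and 41.7% in freshly isolated cells (41.4 to 41.9).

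**Figure D1:**
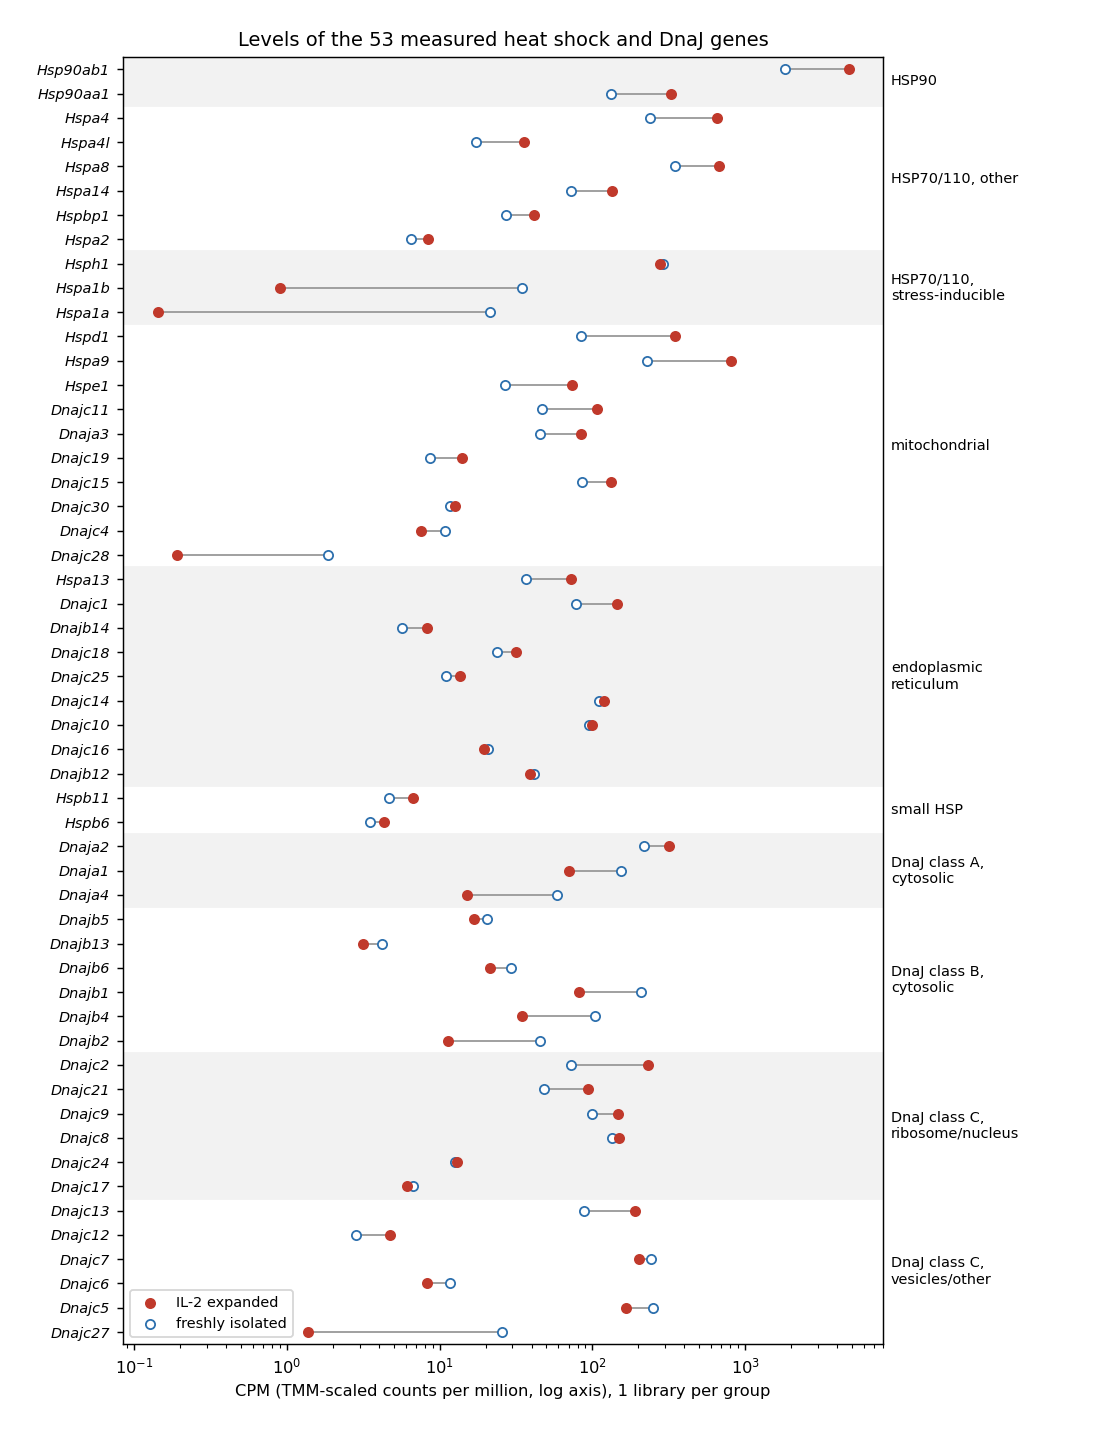
CPM on a log axis of each of the 53 measured genes in the IL-2 expanded library (filled red) and the freshly isolated library (open blue), grouped by role; each point is 1 library and lines join the values of 1 gene. Both HSP90 genes lie to the right in expanded cells, whereas Hspa1a, Hspa1b, Dnajc27 and Dnajc28 lie far to the left.

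Counted gene by gene, the family did not stand out from the table. Of the 53 measured members, 10 (18.9%) were at least 2-fold higher in expanded cells, against 22.4% of all 11715 measured genes, and 9 (17.0%) were at least 2-fold lower, against 25% of all measured genes. At 4-fold, 1 member (Hspd1) was higher and 4 were lower (Hspa1a, Hspa1b, Dnajc27 and Dnajc28), where the shares of all measured genes were 8.92% and 13.5%. The median log2 fold was 0.31 over the measured members and 0.04 over all measured genes. Above 0 lay 33 of the 53 members, beside 6003 of all 11715 measured genes. When libraries were scaled by total count, 5 of the 33 fell below 0. Within the family, 7 of 17 measured HSP genes were at least 2-fold higher and 2 lower (median 0.96), while 3 of 36 measured DnaJ genes were higher and 7 lower (median 0.05).

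**Figure D2:**
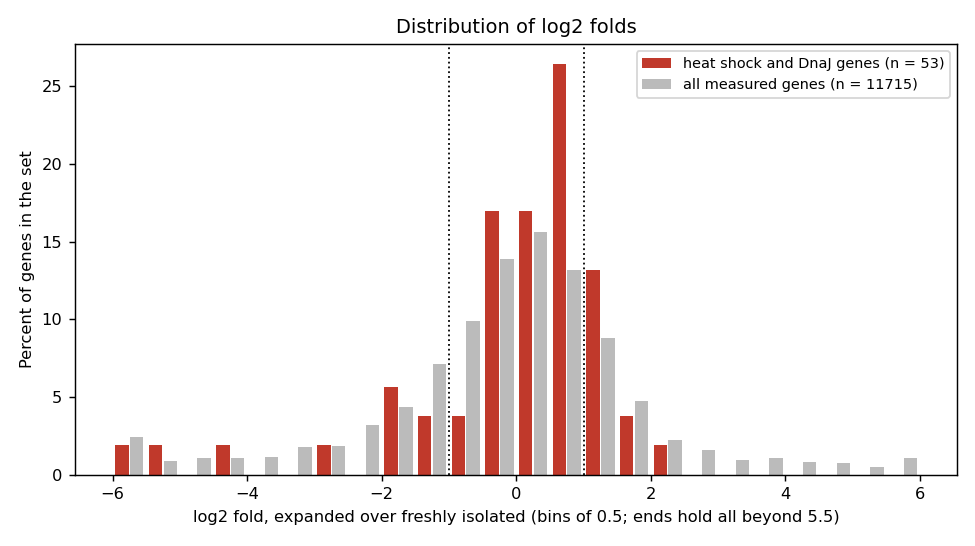
Percent of genes per bin of log2 fold (expanded over freshly isolated, bins of 0.5 with the outermost bins holding all values beyond), for the 53 measured heat shock and DnaJ genes (red) and all 11715 measured genes (grey); dotted lines mark 2-fold. The largest bin of the family, with 14 genes, runs from 0.5 to 1, just short of 2-fold.

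Of the remaining 15 members, 8 had 0 counts in both libraries, which allows a level of up to 0.143 CPM in the expanded and 0.139 CPM in the freshly isolated library (3 counts). They were the small heat shock genes Hspb2, Hspb3, Hspb7 and Hspb8 and the DnaJ genes Dnajb7, Dnajb8, Dnajc5b and Dnajc5g. The other 7 had a few counts. Dnajc22 had 1 count in expanded and 17 counts in freshly isolated cells, Dnajb3 had 5 and 10 counts in the same order, and Hspb1 had 0 and 4 counts. Hspa12a, Hspa12b, Hspa1l and Hspb9 had between 0 and 4 counts in each library. Of the 8 small heat shock genes, 2 were measured, and both were under 2-fold apart. Hspb11, which as background is the intraflagellar transport protein IFT25, stood at 6.66 CPM in expanded and 4.65 CPM in freshly isolated cells. Hspb6 stood at 4.33 CPM in expanded and 3.48 CPM in freshly isolated cells, where the counting interval of the ratio (0.905 to 1.71) includes no difference.

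Sequence in front of the genes is shown for those on which the account turns, the stress-inducible HSP70 pair and the chaperonin pair, with 3 further members for contrast. Heat shock factors bind inverted repeats of the unit GAA, which in the shortest form read GAANNTTC or TTCNNGAA. Each of these equals its own reverse complement, so both strands were covered. Capitals mark matches to either form in the 250 bases before the RefSeq start (build GRCm38.p6), and runs of overlapping matches form arrays of 3 or more units. The stretches of Hspa1a and Hspa1b run from 140 to 41 bases before the start, on the minus strand of chromosome 17, at chr17:34972197-34972296 and chr17:34959279-34959378.

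Hspa1a: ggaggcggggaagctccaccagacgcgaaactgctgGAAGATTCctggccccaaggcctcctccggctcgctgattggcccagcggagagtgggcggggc

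Hspa1b: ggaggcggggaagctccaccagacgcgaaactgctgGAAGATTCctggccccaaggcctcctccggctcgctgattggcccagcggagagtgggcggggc

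Hspe1 and Hspd1, shared (chr1:55088053-55088082, plus strand, 95 to 66 bases before the start of Hspe1): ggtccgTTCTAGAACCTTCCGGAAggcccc

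Hsph1 (chr5:149636351-149636380, minus strand): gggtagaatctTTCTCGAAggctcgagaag

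Dnaja1 (chr4:40722333-40722362, plus strand): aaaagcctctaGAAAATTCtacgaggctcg

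Dnajb6 (chr5:29735841-29735870, plus strand): ctcagctccgaGAATCTTCCGGAAcgctag

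The Hspa1a and Hspa1b stretches are identical, and over all 250 bases before the start the pair differs at 3 positions. The deposited starts of Hspd1 and Hspe1 lie back to back with 215 bases between them, so that 1 array lies before both deposited starts. Other annotated transcripts of the pair begin further out, with exons that overlap by 112 bases, and the stretch shown lies within annotated exon sequence. The Hsph1, Dnaja1 and Dnajb6 stretches also hold annotated exon bases, whereas those of Hspa1a and Hspa1b hold none. RefSeq windows were matched for 54 of the 68 members by symbol, chromosome and strand. Hsp90aa1, Hsp90ab1, Hspa9, Dnajc2 and Dnajc11, all at least 2-fold higher in expanded cells, had no matched window, and neither had Hspa8. Every measured member at least 2-fold lower had one, so the counts by direction below are incomplete on the higher side. A 2-unit match was present in 11 of the 54 (20.4%), against 12% of 17453 windows of all genes in the table. An array of 3 units, in either orientation, was present in 3 of the 54 (5.56%), namely Hspd1, Hspe1 and Dnajb6, against 0.435% of all windows; each such array also counts as a 2-unit match. Of the 9 measured members with a 2-unit match, 2 were at least 2-fold higher in expanded cells (Hspd1 and Hspe1), 4 were at least 2-fold lower (Hspa1a, Hspa1b, Dnaja1 and Dnajc27) and 3 lay between (Hsph1, Dnajb6 and Dnajc10). Of the 33 measured members with a window but no match, 3 were at least 2-fold higher and 5 lower, and over all measured genes the shares were 22.4% and 25%. Members with the letters of the element were found on both sides, and these counts were not tested. For other letters searched on both strands, CACGTG was present in 3 of the 54 windows (5.56%) against 6.9% of all windows, and CCAAT in 16 (29.6%) against 36%. These matches are letters in a window and not measured binding.

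**Figure D3:**
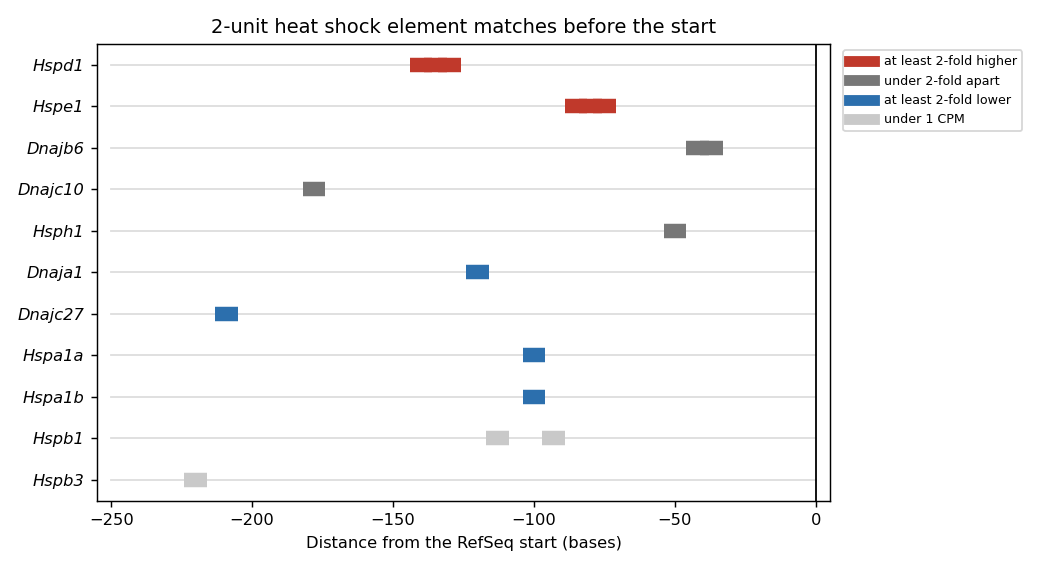
Position of 2-unit heat shock element matches (GAANNTTC or TTCNNGAA) in the 250 bases before the RefSeq start of the 11 members that hold any; the horizontal axis is the distance from the start in bases and the colour gives the difference between the libraries. Overlapping matches in Hspd1, Hspe1 and Dnajb6 form arrays.

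The stress-inducible HSP70 genes had the largest folds of the family, both towards lower levels in expanded cells. Hspa1a (chromosome 17, 34969359 to 34972156, build GRCm38) had 3 counts (0.143 CPM) in expanded cells and 463 counts (21.5 CPM) in freshly isolated cells, 151-fold lower (interval 51.3 to 733.5). Its neighbour Hspa1b (chromosome 17, 34956429 to 34959238) had 19 counts (0.904 CPM) in expanded and 746 counts (34.7 CPM) in freshly isolated cells, 38.4-fold lower (interval 24.4 to 64.1). Both encode nearly the same HSP70 protein. Of the 50-base stretches of the Hspa1a transcript, 66.3% also occur in a transcript of another gene, mostly Hspa1b, and 62.3% of those of Hspa1b, so that the division of reads between the pair is uncertain. The exons of Hspa1a also overlap those of Gm20481 on the other strand over 19.0% of their length, and the use of strand is not given. Summed, the pair stood at 1.05 CPM in expanded and 56.2 CPM in freshly isolated cells.

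The constitutive HSP70 gene Hspa8, which encodes the cognate HSC70, went the other way at 676 CPM in expanded and 348 CPM in freshly isolated cells, 1.95-fold higher (interval 1.89 to 2). The inducible pair accordingly held 0.155% of the summed Hspa1a, Hspa1b and Hspa8 reads in expanded cells (interval 0.0969 to 0.234) and 13.9% in freshly isolated cells (13.2 to 14.7). Of the 50-base stretches of Hspa8, 74.8% occur in transcripts of 13 other genes, so these shares cover only reads that were assigned to 1 of the 3 genes.

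The lower level of the pair came with lower levels of immediate early genes, which respond within minutes to stimulation and to tissue handling. Of 16 such genes, 14 (87.5%) were at least 2-fold lower in expanded cells and 1 (6.25%) was higher, against 25% and 22.4% of all measured genes. The 16 genes had a median log2 fold of -4.48 and summed to 1622 CPM in expanded and 26305 CPM in freshly isolated cells. Fosb, furthest down, stood at 0.666 CPM in expanded and 3101 CPM in freshly isolated cells, and Fos at 3.24 and 2237 CPM in the same order. Egr1 was under 2-fold apart at 297 CPM (expanded) and 388 CPM (freshly isolated), and Ier3 was higher at 48.6 CPM (expanded) against 4.23 CPM (freshly isolated). The sums of the macrophage, B cell, dendritic and erythroid markers given above were lower too, although Batf3 of the dendritic list was higher. Whether handling, stress or other cells had a part in the lower level of the pair was not tested.

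The HSP110 genes, exchange factors that free HSP70 from its substrate, were split. Hsph1, which is also heat-inducible, was nearly level at 276 CPM in expanded and 290 CPM in freshly isolated cells. Hspa4 stood at 659 CPM in expanded and 237 CPM in freshly isolated cells, 2.78-fold higher (interval 2.69 to 2.87). Hspa4l stood at 35.8 and 17.4 CPM in the same order, 2.06-fold higher (interval 1.81 to 2.33), which fell under 2-fold with 3 of the 4 other scalings. Hspbp1, an exchange factor of another fold, stood at 41.7 CPM in expanded and 27.1 CPM in freshly isolated cells. Hspa2, best known from testis, stood at 8.37 CPM in expanded and 6.46 CPM in freshly isolated cells. Thus the 6 measured cytosolic genes of this group outside the stress-inducible set all had log2 folds above 0. Of these, 2 (33.3%) passed 2-fold, against 22.4% of all measured genes.

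The cytosolic HSP90 genes were both over 2-fold higher. Hsp90ab1, the constitutive form (chromosome 17, 45567778 to 45573261), had 99992 counts (4757 CPM) in expanded and 39524 counts (1836 CPM) in freshly isolated cells, 2.59-fold higher (interval 2.56 to 2.62). Hsp90aa1, the form that heat can induce (chromosome 12, 110691036 to 110696395), stood at 326 CPM in expanded and 132 CPM in freshly isolated cells, 2.46-fold higher (interval 2.36 to 2.57). The inducible form took 6.42% of the reads of both in expanded cells (interval 6.27 to 6.57) and 6.73% in freshly isolated cells (6.49 to 6.97). The pair thus kept nearly the same proportion, unlike the HSP70 genes. Hsp90ab1 had the highest level per kb of gene length of all measured members in both libraries, at 1906 CPM per kb in expanded and 736 CPM per kb in freshly isolated cells. It made up 43.8% of the family's reads in expanded and 31.5% in freshly isolated cells. Of the 50-base stretches, 58.5% of those of Hsp90aa1 and 4.49% of those of Hsp90ab1 occur in other transcripts, so the level of Hsp90aa1 is the less certain.

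Mitochondrial chaperones had the largest summed fold among the roles. Their 10 genes summed to 1593 CPM in expanded and 548 CPM in freshly isolated cells, 2.91-fold higher (interval 2.85 to 2.97). Of the 10, 4 (40%) were at least 2-fold higher and 1 (10%) lower, against 22.4% and 25% of all measured genes. Hspd1, which encodes the chaperonin HSP60 (chromosome 1, 55077834 to 55087932), stood at 350 CPM in expanded and 84.0 CPM in freshly isolated cells, 4.17-fold higher (interval 3.96 to 4.39). Its partner Hspe1, the lid HSP10 (chromosome 1, 55088148 to 55091317), stood at 73.8 CPM in expanded and 27.0 CPM in freshly isolated cells, 2.73-fold higher (interval 2.48 to 3.01). Both genes of this back-to-back pair were thus higher, and the counting intervals of their folds do not overlap. About 44.8% of the 50-base stretches of each occur in other transcripts, mainly pseudogenes.

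Hspa9, the mitochondrial HSP70 called mortalin, stood at 811 CPM in expanded and 227 CPM in freshly isolated cells, 3.58-fold higher (interval 3.47 to 3.70). It shares 4.10% of its 50-base stretches with other transcripts. Per kb it took the second rank of the measured members in expanded cells and the seventh in freshly isolated cells. Its J-domain partner Dnaja3, known as TID1, stood at 84.8 CPM in expanded and 45.3 CPM in freshly isolated cells, 1.87-fold higher (interval 1.73 to 2.02). Dnajc19, a part of the import motor of the inner membrane, stood at 13.9 CPM in expanded and 8.64 CPM in freshly isolated cells. Dnajc11, which associates with the complex that shapes the cristae, stood at 107 CPM in expanded and 47.0 CPM in freshly isolated cells, 2.28-fold higher (interval 2.11 to 2.45).

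The other mitochondrial J proteins were mixed. Dnajc15, which restrains the respiratory chain, stood at 132 CPM in expanded and 85.1 CPM in freshly isolated cells. Dnajc30 was nearly level at 12.7 CPM (expanded) and 11.8 CPM (freshly isolated), and Dnajc4 stood at 7.52 CPM in expanded and 10.9 CPM in freshly isolated cells. Dnajc28 had 4 counts (0.190 CPM) in expanded and 40 counts (1.86 CPM) in freshly isolated cells, 9.77-fold lower (interval 3.53 to 37.6). Of 8 other genes of mitochondrial protein care, all 8 had log2 folds above 0 (7 with scaling by total count, by upper quartiles or without the 50 most abundant genes, each of which puts Grpel2 below 0) and 1 was at least 2-fold higher (12.5%, against 22.4% of all measured genes, with a median of 0.63). That gene was the protease Lonp1, at 211 CPM in expanded and 73.4 CPM in freshly isolated cells. Grpel1, the exchange factor of mortalin, stood at 100.2 CPM (expanded) and 51.8 CPM (freshly isolated), whereas Grpel2 and Hscb were nearly level. The HSP90 form of mitochondria, Trap1, stood at 113 CPM in expanded and 100.2 CPM in freshly isolated cells.

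**Figure D4:**
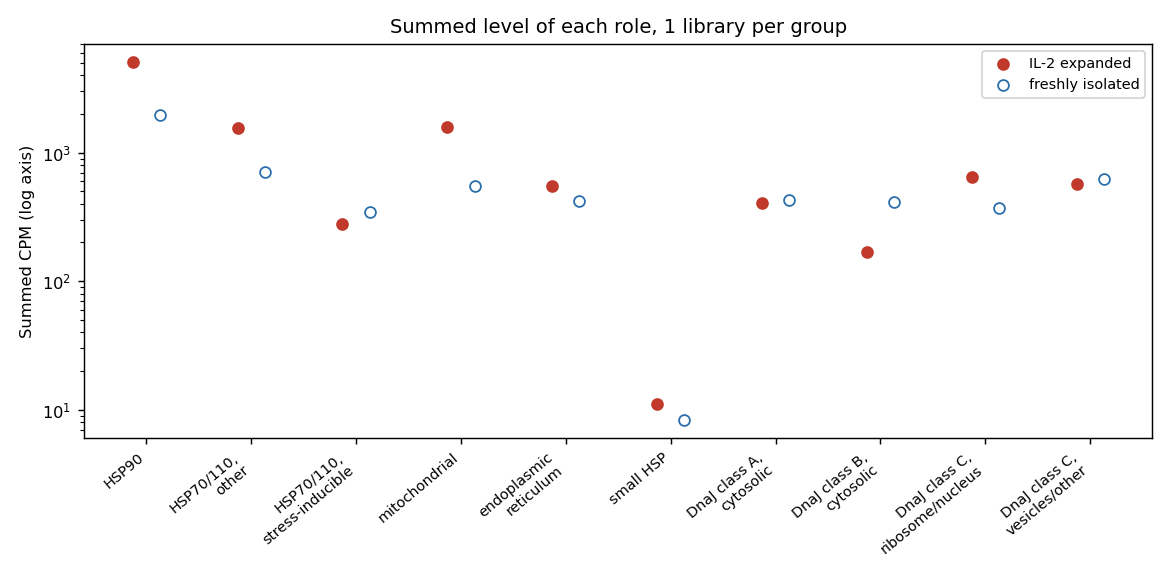
Summed CPM (log axis) of the members of each role in the IL-2 expanded library (filled red, left) and the freshly isolated library (open blue, right); each point is 1 library. The mitochondrial set stands at 1593 and 548 CPM and the cytosolic DnaJ class B set at 169 and 410 CPM, in that order.

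Cytosolic DnaJ genes of classes A and B, the general partners of HSP70, were mostly lower. Of the 6 measured cytosolic class B genes, 3 (50%) were at least 2-fold lower and none was higher, against 25% and 22.4% of all measured genes. All 6 had log2 folds below 0, whereas 6003 of all 11715 measured genes lay above 0. The cytosolic class B genes summed to 169 CPM in expanded and 410 CPM in freshly isolated cells, 0.412 times the level (interval 0.396 to 0.428). Dnajb1, the classical heat-inducible HSP40 (chromosome 8, 83608175 to 83612653), stood at 81.5 CPM in expanded and 207 CPM in freshly isolated cells, 2.54-fold lower (interval 2.41 to 2.69). Dnajb4 stood at 34.5 CPM in expanded and 104 CPM in freshly isolated cells, 3.003-fold lower (interval 2.76 to 3.27). Dnajb2, which also binds ubiquitin chains, stood at 11.4 CPM in expanded and 45.3 CPM in freshly isolated cells, 3.98-fold lower (interval 3.45 to 4.604). Neither Dnajb1 nor Dnajb4 held a heat shock element match in its window.

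Under 2-fold apart in class B were Dnajb6, a suppressor of protein aggregation, at 21.4 CPM (expanded) and 29.1 CPM (freshly isolated), and Dnajb5 at 16.9 CPM (expanded) and 20.3 CPM (freshly isolated). Dnajb13, known from sperm and cilia, stood at 3.14 CPM in expanded and 4.18 CPM in freshly isolated cells, with an interval of the ratio (0.538 to 1.04) that includes no difference. In the same library comparison, the immediate early genes and markers of other spleen cells given above were also lower in sum, with Ier3 and Batf3 higher. Their part in the class B result was not tested.

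Class A was divided between its members. Dnaja2 stood at 319 CPM in expanded and 218 CPM in freshly isolated cells, 1.46-fold higher (interval 1.41 to 1.52). Dnaja1 stood at 69.8 CPM in expanded and 155 CPM in freshly isolated cells, 2.22-fold lower (interval 2.08 to 2.36). Of the 50-base stretches, 28.8% of those of Dnaja1 and 42.8% of those of Dnajb6 occur in other transcripts, so both levels are less certain. Dnaja4, which as background responds to cellular sterol, stood at 15.2 CPM in expanded and 58.7 CPM in freshly isolated cells, 3.86-fold lower (interval 3.41 to 4.38). The exons of Dnaja4 overlap those of Wdr61 on the other strand over 44.1% of their length, and since the use of strand is not given, its level is uncertain. The same holds, over a smaller part of their exons, for Dnajc30 (26.3%, with Bud23), Dnajc14 (17.0%, with Ormdl2) and Dnajb13 (11.2%, with Ucp2). Over Dnaja1, Dnaja2, Dnaja4, Dnajb1, Dnajb4 and Dnajb6 together, Dnaja2 took 58.9% of the reads in expanded cells (interval 58.0 to 59.8) and 28.3% in freshly isolated cells (27.6 to 29.0). Dnajb1 took 15.1% of these reads in expanded cells and 26.9% in freshly isolated cells. Among these 6 genes Dnaja2 had the most reads in both libraries, narrowly ahead of Dnajb1 in freshly isolated cells.

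The class C genes serve particular sites in the cell. Of the 6 assigned to the ribosome, the nucleus, RNA and histones, 1 was at least 2-fold higher in expanded cells (16.7%, against 22.4% of all measured genes), none was lower and the median log2 fold was 0.36. Dnajc2, which sits at the exit of the ribosome, stood at 232 CPM in expanded and 72.4 CPM in freshly isolated cells, 3.20-fold higher (interval 3.02 to 3.39), the largest fold upwards among the DnaJ genes. Its partner in the ribosome-associated complex, the HSP70 gene Hspa14, stood at 135 CPM in expanded and 72.7 CPM in freshly isolated cells, 1.86-fold higher (interval 1.75 to 1.98). Dnajc21, which acts in maturation of the large ribosomal subunit, stood at 93.4 CPM in expanded and 48.0 CPM in freshly isolated cells, 1.95-fold higher (interval 1.80 to 2.10). Dnajc9, a chaperone of histones, stood at 147 CPM in expanded and 99.1 CPM in freshly isolated cells, 1.49-fold higher (interval 1.41 to 1.57). Dnajc8 and Dnajc17, both linked to splicing, were nearly level, the one at 150.2 CPM (expanded) and 135 CPM (freshly isolated), the other at 6.14 and 6.69 CPM in the same order. Dnajc24, needed to make diphthamide on elongation factor 2, stood at 12.99 CPM (expanded) and 12.64 CPM (freshly isolated).

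Of the 6 measured class C genes of vesicles and other sites, 1 was at least 2-fold higher and 1 lower (median log2 fold -0.37). That is 16.7% each way, against 22.4% higher and 25% lower of all measured genes. The endosomal gene Dnajc13, known as RME-8, stood at 189 CPM in expanded and 88.1 CPM in freshly isolated cells, 2.15-fold higher (interval 2.03 to 2.27), and fell under 2-fold when libraries were scaled by total count. Dnajc27, a Rab-like GTPase with a J domain (chromosome 12, 4082574 to 4110612), had 29 counts (1.38 CPM) in expanded and 550 counts (25.6 CPM) in freshly isolated cells, 18.5-fold lower (interval 12.8 to 27.9). It had the largest fold among the DnaJ genes. The sums of the markers of other spleen cells given above were lower beside it, with Batf3 higher, and their part was not tested. Dnajc5, the cysteine string protein of exocytosis, stood at 167 CPM in expanded and 249 CPM in freshly isolated cells, 1.49-fold lower (interval 1.43 to 1.56). Dnajc7, which bridges HSP70 and HSP90, stood at 202 CPM in expanded and 242 CPM in freshly isolated cells. Dnajc6, the clathrin uncoating factor auxilin, stood at 8.33 CPM (expanded) and 11.7 CPM (freshly isolated), and Dnajc12 at 4.76 CPM (expanded) and 2.83 CPM (freshly isolated).

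None of the 9 measured genes assigned to the endoplasmic reticulum was 2-fold apart, where 22.4% of all measured genes were higher and 25% lower. The 9 genes had a median log2 fold of 0.30 and summed to 548 CPM in expanded and 424 CPM in freshly isolated cells. The furthest up was Hspa13, a microsomal HSP70, at 72.5 CPM in expanded and 37.0 CPM in freshly isolated cells, 1.96-fold higher (interval 1.80 to 2.14). Dnajc1, a membrane protein that contacts ribosomes, stood at 146 CPM in expanded and 77.7 CPM in freshly isolated cells, 1.88-fold higher (interval 1.77 to 1.99). Dnajc10, a disulfide reductase, was nearly level at 99.1 CPM (expanded) and 95.2 CPM (freshly isolated), as was Dnajc14 at 118 CPM (expanded) and 111 CPM (freshly isolated). Of the membrane J proteins that serve protein disposal, Dnajb12 stood at 39.3 CPM (expanded) and 41.3 CPM (freshly isolated), Dnajb14 at 8.23 CPM (expanded) and 5.67 CPM (freshly isolated), and Dnajc18 at 31.7 CPM (expanded) and 23.9 CPM (freshly isolated). Dnajc16 stood at 19.7 CPM (expanded) and 20.6 CPM (freshly isolated), and Dnajc25 at 13.6 CPM (expanded) and 11.01 CPM (freshly isolated).

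By level per kb, the largest moves among the 53 measured members were of Hspa1b, at rank 50 in expanded and rank 27 in freshly isolated cells, and of Dnaja4, at rank 41 in expanded and rank 20 in freshly isolated cells. In expanded cells Hsp90ab1 was followed by Hspa9 at 268 CPM per kb, Hspa8 at 214, Dnajc15 at 206 and Hspd1 at 151 CPM per kb. In freshly isolated cells Hsp90ab1 was followed by Dnajc15 at 133 CPM per kb, Hspa8 at 110.1, Dnajc7 at 103 and Dnajc8 at 97.6 CPM per kb. Hspd1 stood at 36.2 CPM per kb there, and Dnajb1, at 64.4 CPM per kb in freshly isolated cells, stood at 25.3 CPM per kb in expanded cells. Levels per kb used the deposited gene length. For Dnajc15 that length is 0.642 kb, whereas its longest annotated coding transcript has 6193 bases, so its high rank depends on the length used.

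Partners outside the family were read from lists of other chaperone genes. The cytosolic chaperonin TRiC and its helper prefoldin had 12 of 14 genes at least 2-fold higher in expanded cells (85.7%, against 22.4% of all measured genes) and none lower (median log2 fold 1.25). Cct2 (log2 fold 1.04) and Vbp1 (1.10) passed narrowly, and scaling by total count, with its median shift of -0.16, puts both under 2-fold. Cct2 also falls short with upper quartiles and without the 50 most abundant genes. Cct6a stood at 656 CPM in expanded and 194 CPM in freshly isolated cells and Pfdn4 at 45.8 and 12.5 CPM in the same order, while Pfdn5 stood at 101.4 CPM (expanded) and 141.6 CPM (freshly isolated) and Pfdn2 at 58.1 CPM (expanded) and 41.3 CPM (freshly isolated). Of 16 HSP90 cochaperones, 4 were at least 2-fold higher and none was lower (median 0.76), a share of 25% higher that is near the 22.4% of all measured genes. Fkbp5 stood at 424 CPM in expanded and 161 CPM in freshly isolated cells, and Ptges3, the p23 protein, at 125 and 46.9 CPM in the same order. Furthest down in that list were Cdc37l1, at 48.7 CPM (expanded) and 83.6 CPM (freshly isolated), and Tomm34, at 92.5 CPM (expanded) and 115 CPM (freshly isolated).

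Of 9 HSP70 cochaperones, 3 were at least 2-fold higher and none was lower (median 0.35), which is 33.3% higher against 22.4% of all measured genes. Among these 3, Bag1, with a log2 fold of 1.10, falls under 2-fold with scaling by total count. Bag2 stood at 18.2 CPM in expanded and 2.37 CPM in freshly isolated cells, 7.67-fold higher (interval 5.72 to 10.5), and St13 at 304 CPM in expanded and 116 CPM in freshly isolated cells. At the other end, Bag6 stood at 182 CPM (expanded) and 242 CPM (freshly isolated), and Bag3, a target of heat shock factor 1, at 22.7 CPM (expanded) and 28.1 CPM (freshly isolated). Neither the 3 measured heat shock factor genes nor the gene of their binding protein Hsbp1 was 2-fold apart. Hsf1, the main factor of the heat shock response, stood at 44.4 CPM in expanded and 83.3 CPM in freshly isolated cells, 1.88-fold lower in expanded cells, and Hsf2 at 19.3 CPM (expanded) and 19.9 CPM (freshly isolated). Hsf4 stood at 4.09 CPM (expanded) and 7.02 CPM (freshly isolated), and the inhibitor Hsbp1 at 62.4 CPM (expanded) and 59.3 CPM (freshly isolated).

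**Figure D5:**
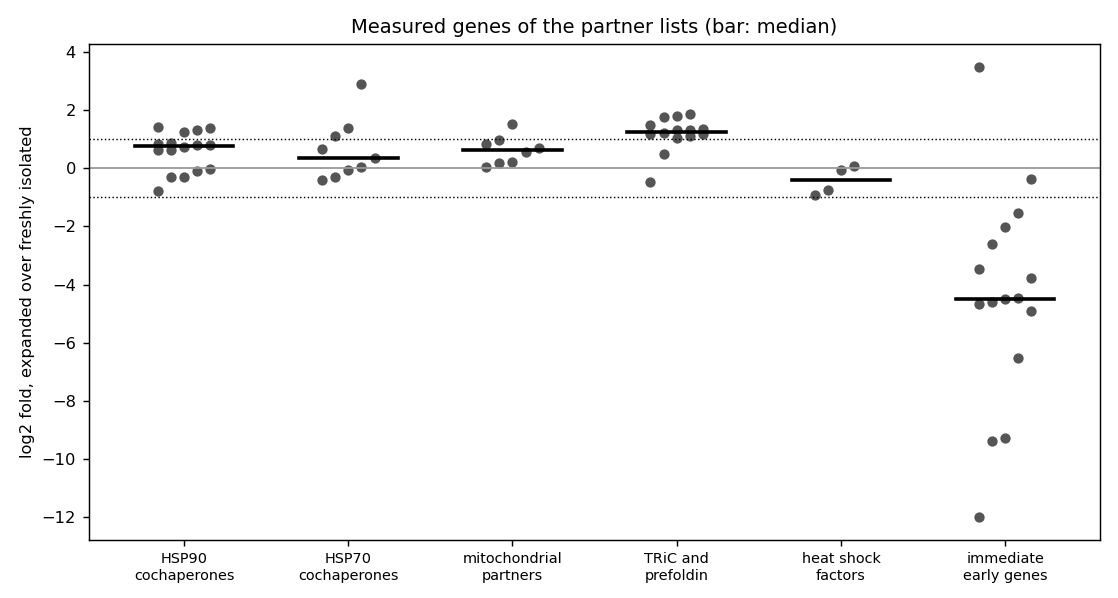
Log2 fold (expanded over freshly isolated) of each measured gene in 6 lists of partner genes and immediate early genes; a point is a gene, the bar is the list's median and dotted lines mark 2-fold. Most TRiC and prefoldin genes lie above the upper line, and 14 of 16 immediate early genes lie below the lower line.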

How the data were processed

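The deposited table holds read counts per gene of 2 libraries, taken as not normalised because they are whole and sum to different totals, with a gene length in kb. Per the submitters' processing notes, the build was GRCm38 (mm10) and the tools included HTSeq 0.6.0 and STAR 2.6.0, with edgeR 3.28.1 and bcl2fastq 2.18.0.12. Their settings, the annotation, the read length and the use of strand are not given in the sources used here. Counts were scaled with TMM factors of edgeR 4.0.16 in R 4.3.3 (0.947 for the expanded and 1.06 for the freshly isolated library), so that 1 count equals 0.0476 and 0.0465 CPM in that order. Genes averaging 1 CPM or more over both libraries were kept. Log2 folds used a prior count of 2. Fold intervals are conditional binomial (Clopper-Pearson). They and the limit of 3 counts cover counting error only, since no molecular identifiers are stated and reads can repeat a molecule. Every measured member and the 2 outermost genes each way of each partner list were eligible to be named, and further genes named from the lists, such as Egr1, Fos, Grpel1, Grpel2, Hscb and Trap1, were chosen after their values were seen. Members and lists were chosen with earlier results of these data known. The calculation was tested on simulated data. Shared sequence and exon overlap were computed from GENCODE M21 transcripts, taking the longest coding transcript of each member, and promoters from RefSeq. Alternatives were 4 other scalings (total count, DESeq2 1.42.0 size factors, upper quartiles, totals that omit the top 50 genes per library), prior counts of 0.5 and 5, a minimum of 5 CPM, no minimum, and leaving out Hspa1a, Hspa1b and Hspa1l.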

Additional observations from a re-analysis of the deposited data

How the results depend on the processing

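The count of members at least 2-fold higher (10) lay between 8 and 11 and that of members at least 2-fold lower (9) between 7 and 11 over the other scalings, prior counts and minimum levels and without the 3 Hspa1 genes. The median log2 fold (0.31) lay between 0.23 and 0.37, except with scaling by total count, where it was 0.15. That scaling shifted the median log2 fold of all measured genes by -0.16. Under it Dnajc13 and Hspa4l were no longer 2-fold apart, and Dnajc8, Dnajc10, Dnajc14, Dnajc24 and Dnajc30 had log2 folds below 0. Hspa4l also fell short of 2-fold, and Dnajc10 and Dnajc24 also changed sign, with upper quartiles and without the 50 most abundant genes. No member at least 2-fold apart changed direction under any scaling or prior count. Leaving out the 16 measured members that share over 10% of their 50-base stretches with another gene, an alternative chosen after the data were seen, left 37 genes, of which 6 were at least 2-fold higher and 5 lower; fewer genes were then counted. With 1 library per group the spread between samples is unknown, and depth limits mainly Hspa1a and Dnajc28, which had 3 and 4 counts in expanded cells.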
